A study of Mus musculus with 29 samples.

Results

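Keratins are the filament proteins of epithelial cells, and keratin-associated proteins fill the space between keratin filaments in the hair shaft. The 109 protein-coding genes of mouse chromosomes 1 to 19 whose symbol is Krt or Krtap followed by a digit were taken, of 20556 protein-coding genes in all. They comprised 53 keratin genes and 56 keratin-associated protein (Krtap) genes. Each was given the H2Aub type, from 1 to 5, that covered most of its body in a segmentation of the genome. H2Aub (H2AK119ub) is monoubiquitinated histone H2A, the mark set by Polycomb repressive complex 1.

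A keratin filament is built from pairs of an acidic and a basic keratin. In the mouse nearly all acidic keratin genes stand in a cluster on chromosome 11 and the basic ones in a cluster on chromosome 15. Simple epithelia make Krt8 and Krt18, which are among the first filament proteins of the embryo's outer layer, while stratified epithelia, the inner root sheath and the hair cortex each make their own pairs. Krtap genes are short, are used late in hair formation and stand in clusters on chromosomes 11 and 16, with smaller groups elsewhere. Polycomb marks are known for covering developmental genes that are silent in a tissue.

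The series held 29 CUT&RUN libraries of mouse oocytes and embryos in 16 groups, 24 of H2Aub and 5 of H3K27me3, the mark of Polycomb repressive complex 2. CUT&RUN cuts out and sequences the DNA near a mark, with a nuclease brought there by an antibody. Wild-type H2Aub came from 16 libraries of 8 stages: germinal vesicle oocytes (B6/129 mixed, Eed (fl/fl), with no Cre driver named), metaphase II oocytes (B6/DBA), zygotes, 2-cell and 4-cell embryos, morulae, inner cell mass and E6.5 epiblast. The embryos had PWK fathers, and mothers that were either wild type (B6/DBA) or Eed (fl/fl) (B6/129 mixed). Another 6 H2Aub libraries were of germinal vesicle oocytes, 4-cell embryos and morulae from Gdf9-Eed (fl/fl) mothers, in which the oocyte driver Gdf9 removes Eed. At the 4-cell stage 6 libraries, of H2Aub or H3K27me3, were of B6/DBA x PWK embryos labelled PR-DUB CTR or OE (control or overexpression of this H2A deubiquitinase complex, meant to deplete H2Aub), and 1 H3K27me3 library was of B6/DBA germinal vesicle oocytes. Oocytes and embryos were pooled, from 1 (an epiblast) to 300 per library, and 3 libraries carried no number.

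The segmentation is 1 table for the whole series. It holds no value per library, so depth is unknown, no replicate error exists, and stages and genotypes could not be compared. The types carry no key and no level of H2Aub. All counts below are therefore descriptions, with no test, set beside the same count over all protein-coding genes. Genes of a cluster share segments and are not independent of each other.

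Every keratin gene lay in type 3 or type 4, and most Krtap genes lay in type 5. Of the 53 keratin genes, 34 took type 4 (64.2%), against 14% of all protein-coding genes. Type 3 took 19 (35.8%), near the 33.8% of all protein-coding genes. None took type 5, the type of 9.53% of all protein-coding genes. Of the 56 Krtap genes, 36 took type 5 (64.3%), 12 type 4 (21.4%), 6 type 3 (10.7%) and 2 type 1 (3.57%). Only these 2 of the 109 genes took type 1, which held 37.2% of all protein-coding genes, and none took type 2, which held 5.43%. Membership went by symbol, so other genes inside the clusters are not in these counts. Of such genes, 16 of 34 on chromosome 16 and 2 of 15 on chromosome 11 took type 1, and 18 and 9 took type 5. Whether any of them belongs to these families was not tested, so the low share of type 1 may depend on naming. The 109 genes together were 42.2% type 4, 33.0% type 5, 22.9% type 3 and 1.83% type 1.

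**Figure D1:**
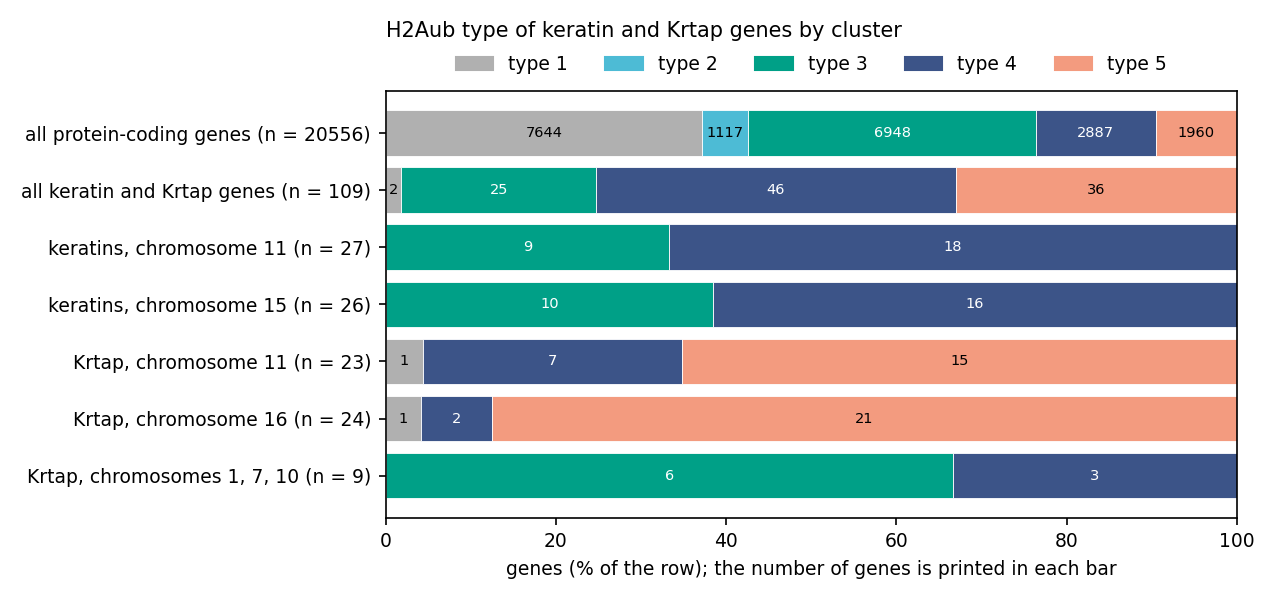
Share of genes (%, x axis) by H2Aub type for all protein-coding genes, all keratin and Krtap genes, and keratin and Krtap genes by cluster, with the number of genes printed in each bar. The bars of keratin genes hold types 3 and 4 alone, while type 5 fills 15 of 23 Krtap genes on chromosome 11, 21 of 24 on chromosome 16 and 0 of 9 elsewhere.

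By gene count type 4 led in the clusters of chromosomes 11 and 15, and type 5 in that of chromosome 16. On chromosome 11, 25 of 50 genes took type 4, 15 type 5, 9 type 3 and 1 type 1. On chromosome 15, 16 of 26 took type 4 and 10 type 3. On chromosome 16, 21 of 24 took type 5 (87.5%), 2 type 4 and 1 type 1. Other protein-coding genes of the same chromosomes were in type 5 for 4.19% on chromosome 11, 5.35% on chromosome 15 and 18.3% on chromosome 16. Their type 4 shares were 17.8%, 18.7% and 8.55%. Type 4 thus took a larger share of the chromosome 11 and 15 cluster members than of other genes on those chromosomes. Type 5 took a larger share of the members on chromosomes 11 and 16. The other genes include those inside the clusters, 15 on chromosome 11 and 34 on chromosome 16.

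Krtap bodies spanned 0.3 to 1.89 kb and keratin bodies 2.81 to 50.62 kb, so size went with the split between the families. Other protein-coding genes of at most 2 kb were 32.4% type 5. That group is rich in chemoreceptor genes, and without them 11.5% of 1013 short genes took type 5, against 64.3% of the Krtap genes, all of which were at most 2 kb long.

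The clusters were counted gene by gene, yet few segments carried them. The 109 genes lay in 31 segments. The 36 Krtap genes of type 5 lay in 6, and the 21 on chromosome 16 in 2. The keratin genes lay in 8 segments of type 4 and 7 of type 3. With each segment counted once, type 5 made up 35.3% of 17 segments that held Krtap genes and type 4 41.2%, the opposite order to the gene counts.

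Few genes crossed a border between types. The body lay wholly in 1 type for 105 of 109 genes (96.3%), against 68.7% of all protein-coding genes. Among genes of at most 2 kb the share was 98.2% for the Krtap genes and 98.5% for other protein-coding genes. The median distance from a gene to the nearest end of its segment was 24.0 kb, and 26 genes lay under 5 kb, 1 bin of the segmentation, from it. By cluster this median was 107.6 kb on chromosome 16, 18.8 kb on chromosome 11 and 8.0 kb on chromosome 15, where 12 of 26 genes lay within 1 bin of a border.

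**Figure D2:**
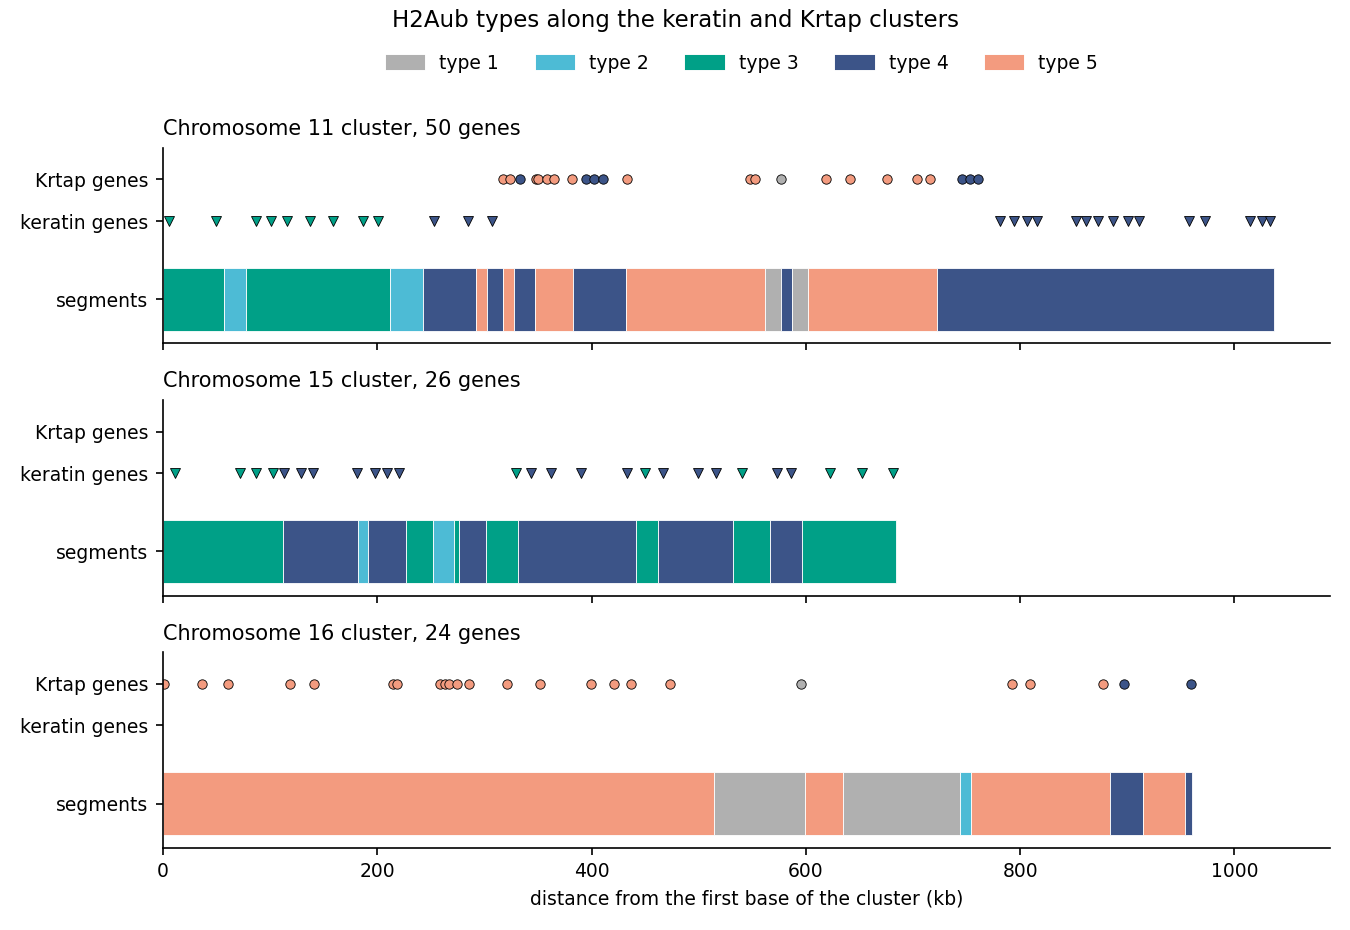
H2Aub segments (coloured bar) and the middles of keratin (triangles) and Krtap genes (circles), coloured by their type, against the distance from the first base of each cluster (kb). On chromosome 11 the Krtap block, with its type 5 segments, stands between type 3 and 4 keratin genes, on chromosome 15 types 3 and 4 take turns, and on chromosome 16 a type 5 segment of 555 kb holds 18 of 24 genes.

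The chromosome 11 cluster (mm10, 99232761 to 100269951) ran through 3 zones along its 1037.2 kb. The first held 9 acidic keratin genes in type 3: Krt222 and Krt24 in a 60 kb segment, then Krt25, Krt26, Krt27 and Krt28 of the inner root sheath, Krt10 of the suprabasal epidermis, Krt12 of the cornea and Krt20 of the gut in a 135 kb segment. Krt23, Krt39 and Krt40 followed in type 4. The middle zone held Krtap genes, in which types 5 and 4 took turns over segments of 10 to 130 kb, with 2 type 1 segments of 15 kb among them. The last was a single type 4 segment of 330 kb (99955001 to 100285000) with 18 genes. It held 3 Krtap genes (Krtap29-1, Krtap16-1 and Krtap17-1) and 15 keratin genes from Krt33a to Krt42. Among the 15 were hair keratins such as Krt31 and Krt35, Krt14 of basal epidermis, Krt17 of skin appendages and Krt19 of simple epithelia.

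By length the chromosome 11 cluster was 44.3% type 4, 29.4% type 5, 18.5% type 3, 4.82% type 2 and 2.89% type 1, in 17 segments. Type 5 lay inside the cluster and not beside it: the 500 kb on either side held none, at 59% and 65% type 3 and 32% and 26% type 1. Going from gene to gene along the chromosome, the type changed at 9 of 49 steps.

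The Krtap genes of chromosome 11 split within families. Of the 8 Krtap4 genes, which encode cysteine-rich hair proteins, Krtap4-1, Krtap4-2 and Krtap4-7 lay in a 50 kb type 4 segment. Krtap4-6, Krtap4-8 and Krtap4-9 lay in the adjoining 130 kb type 5 segment and Krtap4-16 in a further one of 120 kb. Krtap4-13 was the 1 type 1 gene of the cluster, in a 15 kb segment and 0.1 kb from its end. The lower end of Krtap4-6, at 99665043, lay just past the border at 99665001, so the type of this gene rests on the 5 kb grid. Of the 3 Krtap3 genes, Krtap3-3 and Krtap3-2 took type 5 and Krtap3-1 type 4. All 3 Krtap1, all 3 Krtap9 and both Krtap31 genes took type 5, with Krtap1-5 at 97.7% type 5 and 2.31% type 4. The Krtap4 genes were singled out after their types had been seen. Where tandem copies are close in sequence, reads can be shared between them, and how such reads were placed is not given in the sources used here. A change of type between neighbouring Krtap genes is uncertain for that reason.

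The basic keratin cluster of chromosome 15 (101348315 to 102032026) changed between types 3 and 4 all along its 683.7 kb, in 15 segments. It was 49.7% type 4, 45.9% type 3 and 4.39% type 2, with no type 5 and no type 1. At its lower end Krt80, Krt7 of simple and glandular epithelia, Krt87 and Krt88 lay in a 170 kb type 3 segment. At its upper end Krt78, Krt8 and Krt18 lay in a 130 kb type 3 segment. Krt18, the acidic partner of Krt8, is the 1 acidic keratin gene of this cluster. Between these ends type 4 held the hair keratin genes Krt81, Krt86, Krt83, Krt84 and Krt82, and then Krt5 of basal epidermis, Krt6a of wound and appendage epithelium, Krt71 and Krt72 of the inner root sheath and Krt2 and Krt1 of the suprabasal epidermis. Single genes in type 3 broke up this stretch, namely Krt6b, Krt73 and Krt76. The type changed at 8 of 25 steps between neighbouring genes, a larger part than on chromosomes 11 and 16.

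The 3 keratin genes with mixed bodies all lay on chromosome 15. Krt84, a hair keratin, was 63.8% type 4 and 36.2% type 2, and its start site fell in type 2. Krt81 was 80.0% type 4 and 20.0% type 3. Krt6b was 93.1% type 3 and 6.86% type 4, and its neighbour Krt6a lay wholly in type 4. The flanks held no type 5 here either, and the type 3 segments at both ends ran on past the cluster. The lower 500 kb was 66% type 3 and 33% type 4, and the upper 62.6% type 3 and 37.4% type 1.

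The Krtap cluster of chromosome 16 (88610709 to 89571183) was 74.9% type 5 by length, 20.3% type 1, 3.77% type 4 and 1.04% type 2, with no type 3. A type 5 segment of 555 kb (88570001 to 89125000) held 18 of the 24 genes, from Krtap24-1 to Krtap6-3. Among them were Krtap13, Krtap14, Krtap15 and 6 Krtap19 genes. Krtap21-1, Krtap6-2 and Krtap8-1 lay in another type 5 segment of 130 kb. The exceptions stood in the upper part. Krtap20-2 took type 1, in an 85 kb segment, and Krtap7-1 and Krtap11-1, the last 2 genes, took type 4 in segments of 30 and 60 kb. The type changed at 3 of 23 steps. The lower 500 kb was 91% type 5, the leading type of the cluster, while the upper was 56.2% type 3, 20.8% type 4 and 4% type 5.

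Type 1 inside the Krtap blocks needs care. Over the 19 chromosomes it also covered 99.2% of the bases before the first gene kept (58.25 Mb in all). Genes placed at low positions had been left out beforehand, and these stretches are largely unassembled sequence. Whether few mappable reads had a part in the types of Krtap4-13 and Krtap20-2 was not tested.

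Outside the 3 clusters no Krtap gene took type 5. The 5 Krtap5 genes of chromosome 7, which encode the most cysteine-rich family, lay in 1 type 3 segment of 365 kb. On chromosome 10, Krtap12-1 took type 3, 0.6 kb from the end of a 20 kb segment, and Krtap10-4 and Krtap10-10 took type 4 in a segment of 170 kb. Krtap28-13 on chromosome 1 took type 4, in a segment of 120 kb. These 9 genes, with 6 in type 3 (66.7%, against 33.8% of all protein-coding genes) and 3 in type 4 (33.3%, against 14%), lie in only 4 segments. They shared types 3 and 4 with the keratin genes, but type 3 led here and type 4 among the keratin genes.

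**Figure D3:**
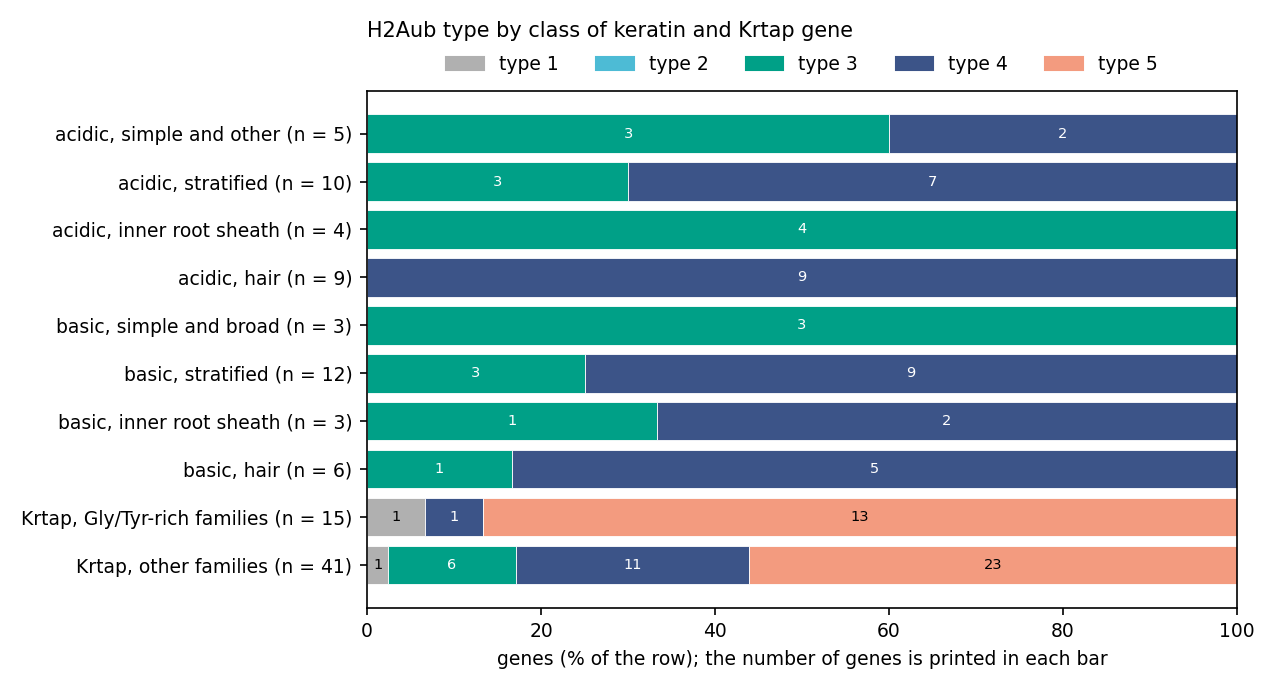
Share of genes (%, x axis) by H2Aub type for 8 classes of keratin gene, named acidic or basic by their chain, and 2 groups of Krtap families, with the number of genes printed in each bar. All 9 acidic hair keratin genes are type 4, all 4 acidic inner root sheath genes are type 3, and 13 of 15 genes of glycine- and tyrosine-rich Krtap families are type 5.

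Classes of keratin differed in how they split between types 3 and 4. Hair keratins leaned to type 4, with 9 of 9 acidic genes (Krt31, Krt32 and others) and 5 of 6 basic ones, Krt87 being the exception. Stratified epithelial keratins took type 4 in 7 of 10 acidic and 9 of 12 basic genes. Simple and broadly expressed basic keratins (Krt7, Krt8 and Krt80) were 3 of 3 in type 3. Of the 5 acidic keratins of simple epithelia or of no special tissue, Krt18, Krt20 and Krt222 took type 3, and Krt19 and Krt23 type 4. The acidic inner root sheath genes Krt25 to Krt28 were 4 of 4 in type 3, whereas their basic counterparts split, with Krt71 and Krt72 in type 4 and Krt73 in type 3. Members of a class mostly stand side by side, so class and position along the cluster cannot be told apart.

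Partner keratins stand on different chromosomes, except for Krt8 and Krt18, so their types were compared as pairs. The pairs were chosen after the types had been seen, and no share of matches is read from them. Krt8 and Krt18 were both type 3. Krt5 and Krt14, the pair of the basal epidermis, were both type 4, as were Krt4 and Krt13 of the oral and oesophageal lining and Krt6a and Krt16 of wounded epidermis. The suprabasal pair differed, with Krt1 in type 4 and Krt10 in type 3. Partners differed as well where Krt2 (type 4) joins Krt10, where Krt6b (type 3) joins Krt16, and in the inner root sheath, where Krt71 and Krt72 (type 4) join Krt25 to Krt28 (type 3), while Krt73, another type II keratin there, was type 3 as well.

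The Krtap families were split by family number, as a stand-in for protein make-up. Those taken as glycine- and tyrosine-rich (Krtap6, 7, 8, 19, 20, 21 and 22) were all on chromosome 16, and the others are mostly rich in cysteine. Protein composition was not computed, so single genes may be misplaced, such as Krtap16-3 of chromosome 16, put with the others. Of the glycine- and tyrosine-rich families, 13 of 15 genes took type 5, and of the others 23 of 41. On chromosome 16 alone the other families took type 5 in 8 of 9 genes (88.9%), close to the 86.7% of the glycine- and tyrosine-rich ones. Over all families, make-up and chromosome largely coincide and cannot be told apart.

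RefSeq (GRCm38.p6) gives the sequence before the start site for 87 of the 109 genes, 36 keratin and 51 Krtap genes. The start site lay in the same type as most of the body for 86 of them, Krt84 being the exception. The 150 bases before the start are shown for 6 genes, chosen to show the range over types. These are Krt18 of type 3, Krt5 and Krt31 of type 4, the cousins Krtap4-2 and Krtap4-6 of type 4 and type 5, and Krtap8-1 of type 5. Each is written on its own strand, 5′ to 3′, with CG dinucleotides and the letters TATAAA in capitals. Krt18 is at chr15:102028066-102028215 (plus strand), and on the minus strand Krt5 is at chr15:101712906-101713055, Krt31 at chr11:100050552-100050701, Krtap4-2 at chr11:99635085-99635234, Krtap4-6 at chr11:99665961-99666110 and Krtap8-1 at chr16:89487953-89488102.
Krt18: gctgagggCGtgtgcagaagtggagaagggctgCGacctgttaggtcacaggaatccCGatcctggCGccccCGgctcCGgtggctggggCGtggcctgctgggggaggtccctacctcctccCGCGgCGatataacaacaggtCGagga
Krt5: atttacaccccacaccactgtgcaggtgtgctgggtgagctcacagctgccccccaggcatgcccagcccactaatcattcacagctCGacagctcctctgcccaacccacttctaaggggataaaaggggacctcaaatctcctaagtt
Krt31: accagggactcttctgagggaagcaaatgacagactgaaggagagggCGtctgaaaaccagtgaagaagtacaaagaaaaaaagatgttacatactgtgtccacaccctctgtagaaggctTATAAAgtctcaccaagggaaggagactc
Krtap4-2: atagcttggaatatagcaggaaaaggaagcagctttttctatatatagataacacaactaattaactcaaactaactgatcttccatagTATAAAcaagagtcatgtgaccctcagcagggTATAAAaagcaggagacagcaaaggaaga
Krtap4-6: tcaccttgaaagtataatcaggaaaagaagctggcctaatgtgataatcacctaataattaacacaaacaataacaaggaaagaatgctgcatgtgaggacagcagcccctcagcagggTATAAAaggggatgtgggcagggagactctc
Krtap8-1: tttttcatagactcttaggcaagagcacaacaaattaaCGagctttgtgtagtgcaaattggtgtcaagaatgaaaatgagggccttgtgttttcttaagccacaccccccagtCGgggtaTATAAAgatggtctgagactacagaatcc

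Krt18 stands apart by its 11 CG dinucleotides in the 150 bases. Krt18 and Krt5 hold no TATAAA. Krt5 and Krt31 hold 1 CG each, Krtap8-1 holds 2, and both Krtap4 stretches hold none. The TATAAA nearest the start begins 29 bases before it in Krt31, Krtap4-2 and Krtap8-1 and 31 bases before it in Krtap4-6. Krtap4-2 holds TATAAA at 2 places and Krtap4-6 at 1.

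CG dinucleotides, the DNA feature that marks CpG islands, were scarce before these genes. In the 250 bases before the start the median was 3 per gene over the 87 genes, against 10 over 16456 protein-coding genes. The share of G and C bases was lower too. Its median was 43.2% over the 87 genes and 40.4% over Krtap genes. Over all protein-coding genes it was 55.6%, and over those in type 5 40.4%. How far base composition bears on the CG and TATAAA counts was not tested. Only Krt7 (16) and Krt18 (12), both of type 3, had 10 or more, as 51.8% of all protein-coding genes did. The median was 5 for the 14 keratin genes of type 3 and 3 for the 22 of type 4. Among Krtap genes it was 1 for the 5 of type 3, 3 for the 10 of type 4 and 1 for the 34 of type 5, and 13 Krtap genes had no CG at all. Over all protein-coding genes the median was 12 in type 3, 8 in type 4 and 2 in type 5. Keratin genes of types 3 and 4 stood in the same order at lower counts, Krtap genes of type 3 did not, and the groups overlapped widely: keratin genes ranged from 2 to 16 in type 3 and from 1 to 9 in type 4.

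**Figure D4:**
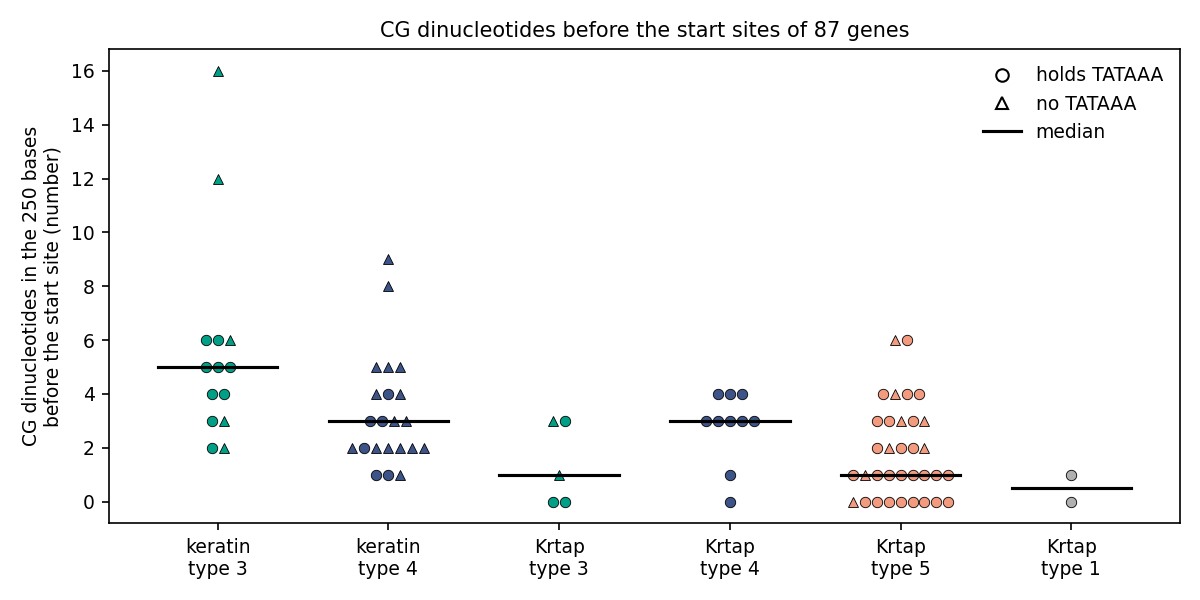
Number of CG dinucleotides in the 250 bases before the start site (y axis) for each of 87 genes, grouped by family and H2Aub type, with circles for genes that hold TATAAA there, triangles for those that do not, and lines for medians. Krt7 (16) and Krt18 (12) stand above all other genes, and the Krtap genes lie between 0 and 6 in every type.

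The letters TATAAA, the core of the TATA box, were common before Krtap genes. On the gene's own strand 41 of 51 Krtap windows of 250 bases held them (80.4%) and 15 of 36 keratin windows (41.7%), against 8.45% of all protein-coding genes and 20.9% of those in type 5. On either strand the figures were 80.4%, 47.2%, 12.5% and 30.7%. TATAAA does not overlap with CG. It began 20 to 40 bases before the start in 31 of the Krtap windows (60.8%) and in 2.9% of all. By type, TATAAA on the own strand stood before 10 of 10 Krtap genes in type 4 and 26 of 34 in type 5 (76.5%), a majority in both. On chromosome 11 the counts were 7 of 7 and 12 of 13, and on chromosome 16 they were 1 of 1 and 14 of 21 (66.7%). In type 3, 3 of 5 Krtap windows held TATAAA. Among keratin genes TATAAA was found in 9 of 14 of type 3 and 6 of 22 of type 4, and in 12 of 20 on chromosome 11 but 3 of 16 on chromosome 15.

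The 250 bases before the 8 Krtap4 genes were compared by global alignment. Identity was 43.4% to 76.7% over the 28 pairs, with a median of 50.6% for the 9 pairs in the same type and 53.0% for the 19 pairs in different types. The median was thus no higher among Krtap4 genes of a shared type. Identity between unrelated windows was not computed, so how much likeness these medians hold is not known. In Krtap4-8 and Krtap4-16 TATAAA began 92 and 55 bases before the start, against 27 to 37 in the other Krtap4 genes. Their windows may therefore be shifted, and how this bears on the identities was not tested. The pair most alike was Krtap4-6 and Krtap4-9, both type 5, at 76.7%, followed by Krtap4-6 with the type 1 gene Krtap4-13 at 72.7%.

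Other genes of keratinised epithelium differed from list to list. The cornified envelope genes, mostly short tandem genes of chromosome 3 that build the outer shell of skin cells, were type 5 in 35 of 42 (83.3%, against 9.53% of all protein-coding genes). Of 45 names listed, 42 were matched to a protein-coding gene. Lor, encoding loricrin, Ivl, encoding involucrin, and Flg, encoding filaggrin, lay wholly in type 5. The exceptions were Flg2, Sprr2a1 and Sprr2a2 in type 1, Crnn, Tchh and Tchhl1 in type 3 and Lce1m in type 4. Other intermediate filament genes were 9 of 15 in type 3, 4 in type 4 and 2 in type 1 (Lmna and Lmnb1, of the nuclear lamina), with none in type 5. Type 3 led among them (60.0%), where type 4 led among the keratins (64.2%). Des, the muscle filament gene, was type 4, and Vim, the mesenchymal one, was 66.8% type 3. Of 18 regulators of skin and hair, 10 were type 3 (55.6%, against 33.8%) and 7 type 4 (38.9%, against 14%), with Hoxc13, a regulator of hair keratin genes, in type 4 and Foxn1 in type 3. Trp63, which directs stratified epithelium, was the 1 in type 2. Enzymes that crosslink or modify keratinised protein were 5 of 7 in type 3 and 2 in type 4, on few genes. Desmosome and plakin genes, which anchor keratin filaments, were spread over all 5 types, with 6 of 18 each in types 1 and 3 (33.3%), near the 37.2% and 33.8% of all protein-coding genes.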

How the data were processed

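The file holds 31563 segments with a type label from 1 to 5, a category that the authors deposited as an H2Aub ChromHMM segmentation, per its name. The tools named, with mm10, are Bowtie2 2.3.4.3, deepTools 3.0.2, Picard 2.8.0 and Trim Galore 0.4.5, per the submitters' processing notes. Not given in the sources used here are the ChromHMM version, its input libraries and a key to the types. Borders fall on a 5 kb grid, and no segments overlapped in the 3 clusters.

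Genes came from RefSeq GRCm38.p6, the same assembly as mm10. Genes of these chromosomes with a start at or below a fixed low position (328) were taken to lie on separate scaffolds and were left out. A gene took the type covering most of its body, an overlay checked on simulated segments. A cluster is the longest run of members with at most 1 Mb between neighbours. Sequence before the start was taken for the RefSeq start nearest the gene's outer end, which was that end for 80 of 87 genes and over 1 kb inside it for 4. Alignment used Biopython 1.88 with match 1, mismatch -1, gap opening -3 and gap extension -1.

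The members and lists were chosen with earlier results of these data known. Named by rule were genes outside a cluster's leading type, those with mixed bodies, the first and last of each cluster, the first 2 of each class, 15 fixed genes (Krt85 was not analysed here) and all outside the clusters. Others named, and the split of Krtap families by protein make-up, were chosen after their types were seen. The planned protein composition was not computed. Python 3.11.15, pandas 2.3.3, NumPy 2.4.6, SciPy 1.17.1 and Matplotlib 3.10.9 were used.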

Additional observations from a re-analysis of the deposited data

How the results depend on the processing

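Of 30 shares (6 sets of genes by 5 types) under 12 alternative settings, 351 of 360 values stayed within the exact 95% Clopper-Pearson interval of the reported share, which covers counting error only. Genes that share segments are not independent, so the number of values inside this interval is no measure of robustness. Some settings could change little or nothing. No segments overlapped in the 3 clusters, and the gap between neighbours has no bearing on sets not defined by cluster. Of the settings 10 were planned and 2, the RefSeq start site and each segment counted once, were chosen after seeing the data, as were the shares of keratin and of Krtap genes. With body length in place of gene counts, type 3 came to 44.4% and type 5 to 5.61% of all members, and on chromosome 11 they came to 37.6% and 6.58%, since Krtap genes are short. On chromosome 15 body length put type 3 (51.6%) ahead of type 4 (47.3%), against 38.5% and 61.5% of genes. This lead of type 3 by length rests on 1 gene, Krt78, whose annotated body of 50.62 kb stands against a cluster median of 8.03 kb. By segments counted once, types 3 and 4 were level on chromosome 15, at 50.0% each. These values stayed within the intervals, but type 4 did not keep its lead. With each segment counted once, type 5 came to 19.4% of all members' segments, to 40.0% on chromosome 16, level with type 4 at 40.0% there, and to 35.3% for Krtap genes, whose type 4 share was 41.2%, since few segments hold many genes. By the lower end of the body 2 genes changed type (Krt81 and Krtap1-5), by the higher end 2 others (Krt6b and Krt84), and by its middle or with 5 kb on each side none of the 109. No paired analysis was possible because the table has no value per library, and for the same reason no replicate could be left out.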

Other observations

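Protein-coding genes without a Krt or Krtap symbol stood between the members and were mostly short. Inside the chromosome 11 cluster there were 15, all within the Krtap block, of which 9 took type 5, 4 type 4 and 2 type 1. The 2 in type 1, Gm11569 and Gm11554, lay beside Krtap4-13. Inside the chromosome 16 cluster there were 34, of which 18 took type 5 and 16 type 1. Of the 16, those from Gm33888 to Gm34396 lay in the 85 kb segment of Krtap20-2, and those from Gm35091 to Gm33084 in another type 1 segment of 110 kb that held no member. The chromosome 15 cluster held 1 such gene, Gm5414, at 77.0% type 4. These genes were looked at after the types of the members had been seen.

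A pair of pseudogenes carries keratin symbols. Krt74, which RefSeq lists as a transcribed pseudogene of chromosome 15, lay wholly in type 4 between Krt71 and Krt72, both of type 4. Krt8-ps on chromosome 7 lay wholly in type 3, the type of Krt8.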
